A study of Mus musculus with 16 samples.

Results

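Lactate and ketone body handling was examined in brown adipose tissue (BAT) through 9 genes chosen by name, out of 49066 gene symbols measured. They were the lactate dehydrogenase genes *Ldha* and *Ldhb*, the monocarboxylate transporter genes *Slc16a1*, *Slc16a3* and *Slc16a7*, and the ketone body enzyme genes *Oxct1*, *Bdh1*, *Bdh2* and *Acat1*. Transcript abundance in TPM, a length-normalised share of the library, was summed for each symbol. The names use no threshold on measured values, but they were picked with earlier results of these data known.

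BAT came from C57BL6/J mice that were all homozygous for a floxed *Gdf15* allele. KO mice (GDF15 BKO) also carried a *Ucp1*-Cre transgene, Tg(Ucp1-cre)1Evdr, which deletes the gene in cells that express *Ucp1*. WT mice carried the floxed allele without Cre, so no group had an unmodified *Gdf15* locus. Each sex was represented by 4 WT and 4 KO mice. All received a high-fat diet (HFD) with 60% of calories from fat for 12 weeks and were 18 weeks old. Mice of the study were moved to single housing at thermoneutrality for metabolic measurements late in the diet, and the sources do not say whether the sequenced mice were among them. The comparisons ask whether the loss of *Gdf15* in thermogenic adipocytes changed these genes under HFD, and whether any change differed between the sexes.

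Lactate dehydrogenase is a tetramer of the subunits encoded by *Ldha* and *Ldhb*, and it interconverts pyruvate and lactate. The subunit from *Ldha* favours lactate formation, and the subunit from *Ldhb* favours lactate oxidation. The monocarboxylate transporters MCT1, MCT4 and MCT2, encoded by *Slc16a1*, *Slc16a3* and *Slc16a7*, carry lactate, pyruvate and ketone bodies across the plasma membrane together with a proton. In ketone body use, BDH1 oxidises beta-hydroxybutyrate to acetoacetate, SCOT, the product of *Oxct1*, activates acetoacetate with coenzyme A from succinyl-CoA, and the thiolase ACAT1 cleaves the product to acetyl-CoA. Brown adipocytes take up and release lactate and oxidise several circulating fuels.

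*Gdf15* was between 0.37 and 3.81 TPM in male WT and between 0.08 and 0.27 TPM in male KO libraries, without overlap. In females it was between 0.06 and 0.31 TPM in WT and between 0 and 0.08 TPM in KO libraries, and these ranges overlapped. Summed brown adipocyte markers, among them *Ucp1* and *Cidea*, were between 4876 and 8613 TPM over all libraries, and all 7 markers were above 0 everywhere. Mitochondrially encoded transcripts made up 34.5 to 59.8% of the TPM. One library stood apart in its make-up: in female WT mouse 4, a single transcript that matched no gene of the annotation took 16.5% of the TPM. Female KO mice 1 and 4 stood apart in many genes, described with the members' values. Most differences of the members that rest on female KO mice 1 and 4 are given with and without them. The TPM values do not show the number of reads behind them, so precision rests on the spread between mice. The labels number the libraries within each group, and each library was taken as a separate animal.

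The first set of sequences shown is the 250 bases before the annotated start of *Ldha*, *Slc16a1* and *Ldhb*, because *Ldha* and *Slc16a1* followed each other across libraries (Pearson's r = 0.78 over 16 libraries, a description) and *Ldhb* did not follow them (r = -0.61 with *Ldha* and -0.68 with *Slc16a1*). *Slc16a7* also followed *Slc16a1* (r = 0.76) and *Ldha* (r = 0.62), and its promoter is not shown. For deviations from the group means, r was 0.69 for *Ldha* with *Slc16a1*. It was -0.28 for *Ldhb* with *Ldha* and -0.45 for *Ldhb* with *Slc16a1*. The *Ldhb* values also rest on a short transcript model, described below. The windows come from RefSeq promoters on GRCm38.p6, which held 7 of the 9 members. CACGTG, the E-box hexamer that basic helix-loop-helix factors bind, was searched in this window and reads alike on both strands. It is set in capitals.
Ldha (chr7:46845554-46845803, plus strand): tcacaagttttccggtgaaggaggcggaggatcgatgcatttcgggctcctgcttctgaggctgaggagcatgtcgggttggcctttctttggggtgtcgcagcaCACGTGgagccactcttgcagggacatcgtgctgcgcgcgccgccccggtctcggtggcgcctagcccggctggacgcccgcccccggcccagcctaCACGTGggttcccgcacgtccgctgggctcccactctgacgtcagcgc
Slc16a1 (chr3:104638414-104638663, plus strand): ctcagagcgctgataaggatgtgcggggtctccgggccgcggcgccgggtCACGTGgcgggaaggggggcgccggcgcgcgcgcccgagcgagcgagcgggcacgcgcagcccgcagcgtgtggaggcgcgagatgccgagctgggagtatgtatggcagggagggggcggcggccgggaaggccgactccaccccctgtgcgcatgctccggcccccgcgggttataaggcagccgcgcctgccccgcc
Ldhb (chr6:142507958-142508207, minus strand): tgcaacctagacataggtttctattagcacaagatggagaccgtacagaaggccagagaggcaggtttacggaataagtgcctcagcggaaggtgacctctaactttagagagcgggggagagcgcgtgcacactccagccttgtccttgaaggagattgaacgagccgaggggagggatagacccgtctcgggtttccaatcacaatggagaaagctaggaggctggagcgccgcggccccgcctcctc
The *Ldha* window held the hexamer at 145 and 48 bases before the start, counted to its first base, and the *Slc16a1* window held it at 200 bases. The *Ldhb* window had no match. Of the 9 promoters that the table lists for the 7 members, 2 held CACGTG in these 250 bases. Among all 32851 promoters of the table, 6.02% held CACGTG in the same 250 bases. The windows shown were chosen by the genes' values, so they do not test a link between the hexamer and those values. A match describes letters and is not evidence of a bound site.

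The next set bears on a feature of the *Ldhb* values. Most of the *Ldhb* TPM was assigned to Ldhb-202, a model of 437 nt and 2 exons whose start is annotated as not found, rather than to the full-length Ldhb-201 of 1304 nt and 8 exons. On GRCm38 both lie on the minus strand of chromosome 6 and share the last exon, chr6:142490249-142490604. Ldhb-202 begins inside exon 5 of Ldhb-201 (its first exon is chr6:142495568-142495648) and skips 2 exons. The 81 bases before the last exon therefore differ between the models, while the first 14 bases of that exon, in capitals, are the same. The sequences were read from GENCODE release 21 and cover coding exons.
Ldhb-202: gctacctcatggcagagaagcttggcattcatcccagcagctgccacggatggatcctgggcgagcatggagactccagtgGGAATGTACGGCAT
Ldhb-201: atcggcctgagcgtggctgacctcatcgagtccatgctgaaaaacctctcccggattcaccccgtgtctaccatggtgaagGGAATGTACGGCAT
The last exon makes up 356 bases in both, which is most of Ldhb-202 and a smaller part of Ldhb-201.

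The members spanned a wide range of levels on the TPM scale. *Ldha* had the highest mean over the 16 libraries (727 TPM ± 155 SD), followed by *Acat1* (400 ± 39.8), *Ldhb* (175 ± 66.6), *Oxct1* (100 ± 13.6) and *Slc16a1* (75.5 ± 16.7). *Slc16a7* was far lower (3.85 ± 1.24), *Slc16a3* was near 1 TPM (0.94 ± 0.62), and *Bdh1* (0.26 ± 0.19) and *Bdh2* (0.23 ± 0.12) were barely present. *Ldha* was above *Acat1*, *Acat1* above *Ldhb*, and *Ldhb* above *Oxct1* in 16 of 16 libraries. The place of *Acat1* rests in part on the 500 nt Acat1-203, annotated as a processed transcript, which carried 48.9% of its TPM. The protein-coding Acat1-201 averaged 204 TPM. In female KO mouse 1 it was 149 TPM, below the 349 TPM of *Ldhb*. The place of *Ldhb* rests on the short model Ldhb-202, which carried 70.2% of its TPM. The full-length Ldhb-201 averaged 40.7 TPM, below the 82.8 TPM of the main transcript Oxct1-201. *Oxct1* was above *Slc16a1* in 15 of 16. *Slc16a1* and *Slc16a7* were the neighbours whose ranges did not overlap, whereas *Bdh1* was above *Bdh2* in 8 of 16 libraries and their order was not resolved. Under HFD, BAT thus held MCT1 transcripts far above those of MCT2 and MCT4, and transcripts for SCOT and ACAT1 far above those of both beta-hydroxybutyrate dehydrogenase genes.

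**Figure D1:**
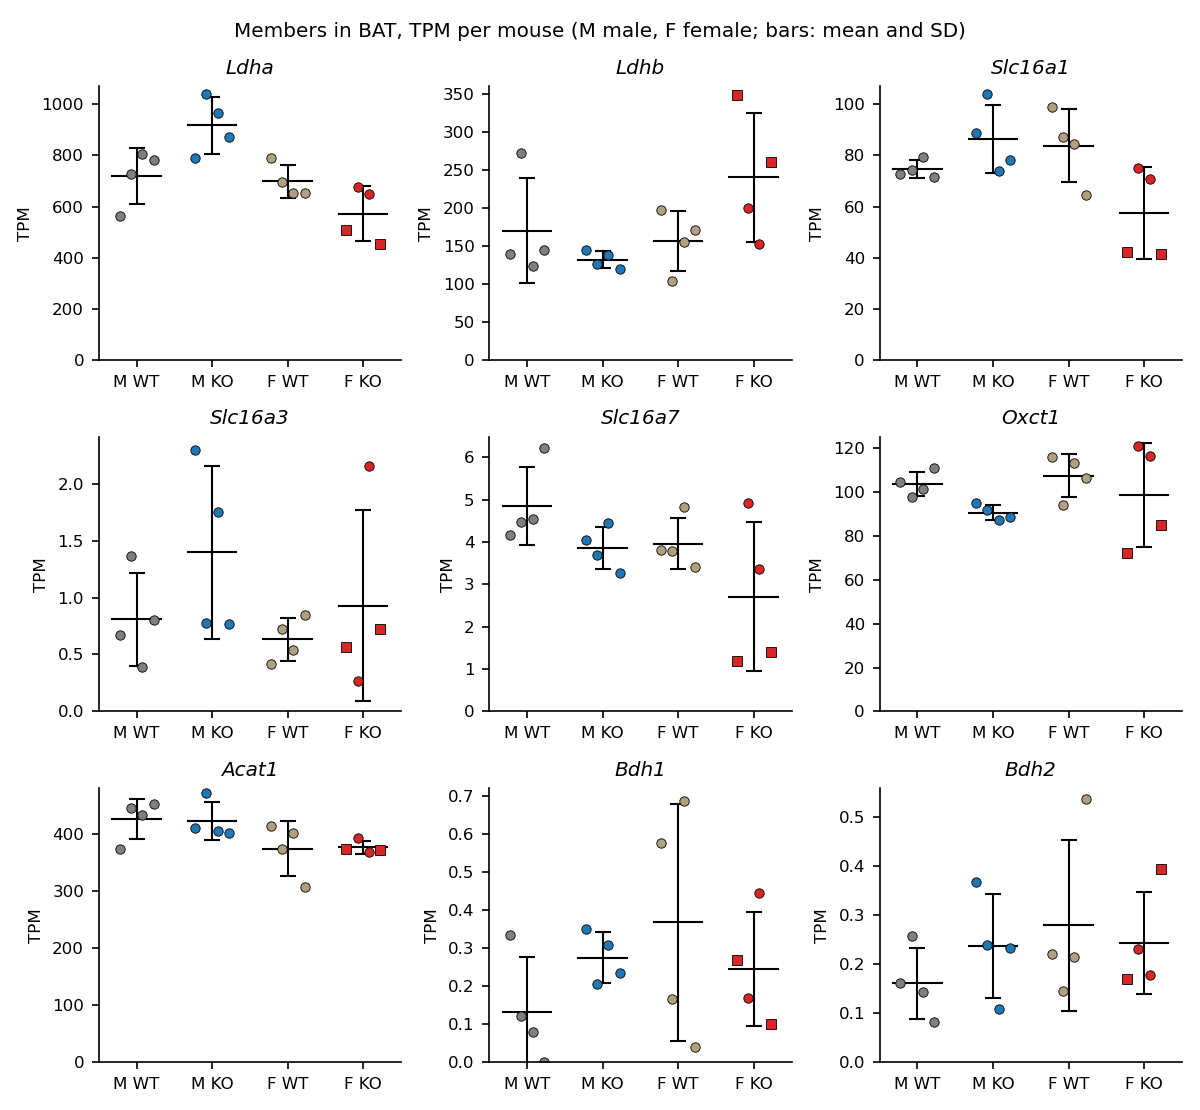
TPM of the 9 members in each mouse, one panel per gene with its own axis from 0, for male (M) and female (F) WT and KO. Points are mice, lines and bars are the group mean and SD (n = 4), and squares mark female KO mice 1 and 4. The lower bar of *Bdh1* in male WT is cut at 0. Both squares sit below every other mouse for *Ldha*, *Slc16a1*, *Slc16a7* and *Oxct1*.

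*Ldha*, which encodes the subunit that favours lactate formation, was 565, 726, 805 and 783 TPM in male WT mice 1 to 4 and 789, 1041.5, 966 and 873 TPM in male KO mice 1 to 4. Male KO mouse 1 lay below WT mouse 3, and the other 3 KO mice were above all WT mice. The female values were 791, 697, 655 and 655 TPM in WT and 509, 676, 650 and 454 TPM in KO. All female KO values except that of mouse 2 lay below every WT value, so the female groups also overlapped. The mean was 720 ± 108 TPM in WT and 917 ± 110 TPM in KO males, and 699 ± 64.5 TPM in WT and 572 ± 108 TPM in KO females (SD, n = 4 each).

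On the log2(TPM + 0.5) scale, the *Ldha* difference between KO and WT was 0.35 in males (SE 0.14, unadjusted p = 0.0338) and -0.30 in females (SE 0.17, unadjusted p = 0.107). The difference between these effects was -0.66 (SE 0.22, unadjusted p = 0.00799). None of the 3 values passed the threshold of 0.05 after Benjamini-Hochberg adjustment over all genes in limma (adjusted p = 0.24, 0.37 and 0.22). Summed markers of macrophages and of fibroblasts separated the male groups in the same libraries. The 9 macrophage markers, all above 0, summed to 45.7 to 89.4 TPM in WT and 117 to 172 TPM in KO males, and the 6 fibroblast markers to 98.4 to 155 and 200 to 212 TPM. Their part in the *Ldha* values was not tested, and in bulk tissue more cells of a type and more RNA per cell cannot be told apart.

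The 3 genes whose values were most like those of *Ldha* over the 16 libraries were the glycolytic genes *Gapdh* (r = 0.97), *Pkm* (r = 0.97) and *Eno1* (r = 0.97), out of 12210 genes. The libraries share one TPM sum, and 2 of them lie far from the rest, so these are descriptions. *Eno1* ranged from 525 TPM in female KO mouse 4 to 2782 TPM in male KO mouse 2, the same libraries in which *Ldha* was lowest and highest.

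**Figure D2:**
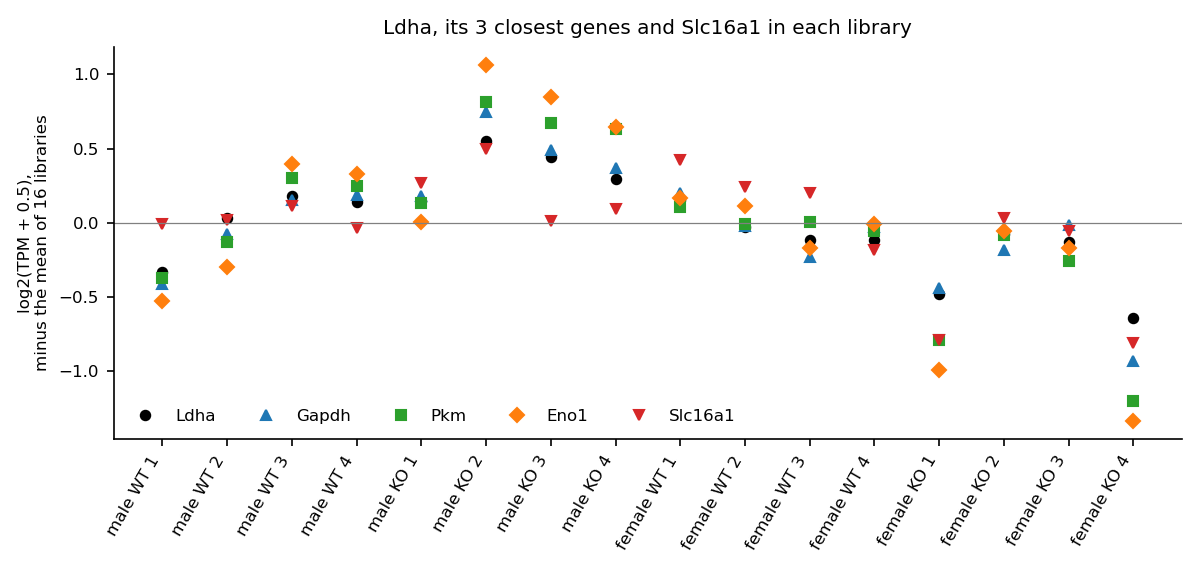
Level of *Ldha*, its 3 closest genes and *Slc16a1* in each of the 16 libraries, as log2(TPM + 0.5) minus the gene's mean over all libraries. *Ldha*, *Gapdh*, *Pkm* and *Eno1* keep close together in most libraries and are lowest in female KO mouse 4.

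*Ldhb*, which encodes the subunit that favours lactate oxidation, was 140, 273, 124 and 145 TPM in male WT and 145, 127, 138 and 120 TPM in male KO mice. Male WT mouse 2 was high, and the remaining male mice lay close together. In females *Ldhb* was 197, 105, 156 and 172 TPM in WT and 349, 200.7, 153 and 261 TPM in KO mice. Female KO mice 1, 2 and 4 were above every female WT mouse and KO mouse 3 was not. The difference between KO and WT was -0.29 in males (SE 0.23, unadjusted p = 0.232) and 0.58 in females (SE 0.28, unadjusted p = 0.0709), and the effects differed by 0.88 (SE 0.39, unadjusted p = 0.0382). The limma adjusted p-values were 0.49, 0.32 and 0.32. Without male WT mouse 2 the male difference was -0.04 (unadjusted p = 0.685), and without female KO mouse 1 the female difference was 0.38 (unadjusted p = 0.192).

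These *Ldhb* values followed the short model Ldhb-202. Its TPM was 321 and 237 in female KO mice 1 and 4 and 237 in male WT mouse 2, and between 50.3 and 126 in the other 13 libraries. The full-length Ldhb-201 was lowest in the same female KO mice, at 10.4 and 9.17 TPM, against 23.6 to 74.6 TPM in the other 14 libraries. Ldhb-202 carried 92.0 and 90.6% of the gene's TPM in female KO mice 1 and 4 and 86.5% in male WT mouse 2, and 36.4 to 79.8% elsewhere. As the sequences show, a read in the shared last exon can be assigned to either model, and a read counts for more TPM in a shorter model. When each transcript was weighted by its length before summing, an alternative chosen after seeing the data, the female *Ldhb* difference was 0.18 (unadjusted p = 0.495), the male difference -0.11 (unadjusted p = 0.581), and their difference 0.29 (unadjusted p = 0.395).

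**Figure D3:**
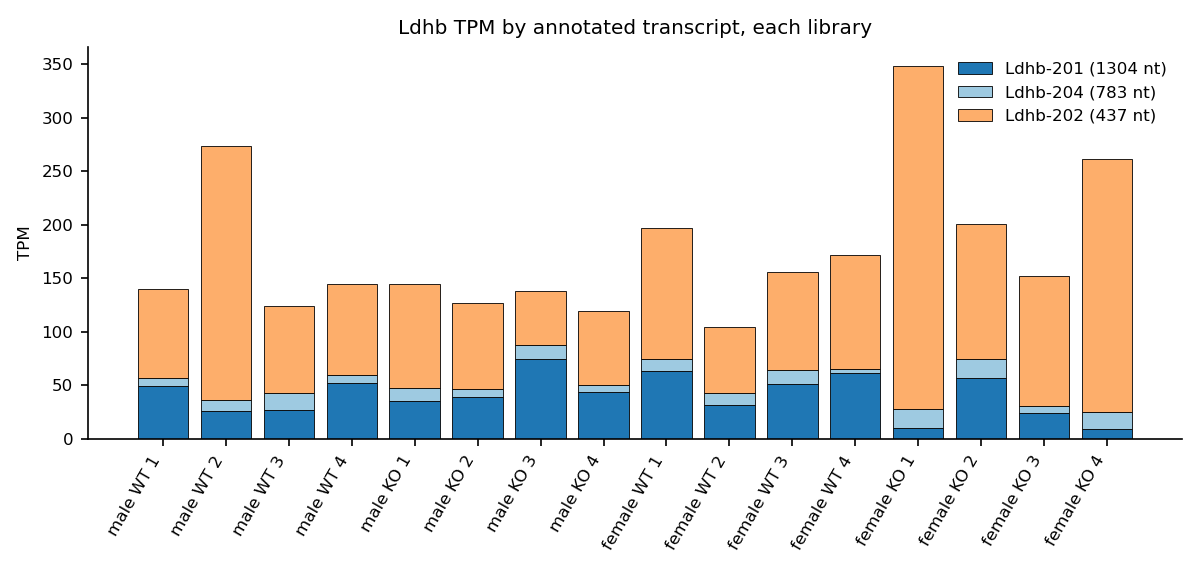
*Ldhb* TPM in each library, stacked by annotated transcript, with transcript lengths in the legend and the TPM axis from 0. The tallest bars, female KO mouse 1, male WT mouse 2 and female KO mouse 4, consist mostly of the 437 nt model Ldhb-202.

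The balance of the subunits was expressed per library as the log2 ratio of *Ldhb* to *Ldha*. *Ldhb* made up 19.1 ± 6.15% of the summed TPM of both genes in WT and 12.7 ± 1.97% in KO males, and 18.3 ± 3.54% in WT and 29.8 ± 10.4% in KO females (SD, n = 4). The share was 40.6, 22.9, 19.0 and 36.5% in female KO mice 1 to 4, so mice 1 and 4 were high and mouse 3 lay within the WT range. The log2 ratio differed between KO and WT by -0.65 in males (exact two-sided permutation p = 0.0571) and by 0.89 in females (exact permutation p = 0.114), and both adjusted p-values over the 12 ratio tests were 0.571. Without female KO mice 1 and 4 the female difference was 0.26 (exact permutation p = 0.533). WT females and WT males differed by -0.05 (exact permutation p = 0.886). The smallest p that 4 against 4 mice allow is 0.0286. The ratio rests on the same *Ldhb* models.

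*Slc16a1*, the MCT1 gene, was 72.9, 74.3, 79.6 and 71.6 TPM in male WT and 88.7, 103.9, 74.1 and 78.3 TPM in male KO mice. The male groups overlapped, with KO mice 3 and 4 inside the WT range. The female values were 98.7, 87.1, 84.6 and 64.5 TPM in WT and 42.2, 75.2, 70.8 and 41.7 TPM in KO mice. Female KO mice 1 and 4 were below all other libraries, and KO mice 2 and 3 lay between WT mouse 4 and the other WT mice. The gene has 1 annotated transcript, so its sum does not depend on the assignment of reads between models.

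The *Slc16a1* difference between KO and WT was -0.58 in females (SE 0.24, unadjusted p = 0.0385) and 0.20 in males (SE 0.12, unadjusted p = 0.132), and the effects differed by -0.77 (SE 0.27, unadjusted p = 0.0130). None passed limma with adjustment over all genes (adjusted p = 0.27, 0.38 and 0.25). Without female KO mice 1 and 4 the female difference was -0.18 (unadjusted p = 0.417) and the difference between effects -0.38 (unadjusted p = 0.109). The genes most like *Slc16a1* over the 16 libraries were *Mtus1* (r = 0.94), *Galm* (r = 0.94) and *Inip* (r = 0.92).

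*Slc16a7*, the MCT2 gene, was 4.17, 4.47, 4.56 and 6.22 TPM in male WT and 4.06, 3.70, 4.44 and 3.27 TPM in male KO mice. The groups overlapped only through KO mouse 3, which was above WT mouse 1. Its female values were 3.82, 3.78, 4.84 and 3.42 TPM in WT and 1.18, 4.91, 3.36 and 1.40 TPM in KO mice. Mice 1 and 4 were again low, whereas KO mouse 2 was above all female WT mice. KO minus WT was -0.29 in males (SE 0.14, unadjusted p = 0.0741) and -0.63 in females (SE 0.35, unadjusted p = 0.105), with adjusted p = 0.30 and 0.37 in limma. Averaged over both sexes it was -0.46 (SE 0.20, unadjusted p = 0.0382, limma adjusted p = 0.18). Without female KO mouse 2, the mean effect was -0.61 and passed the threshold (adjusted p = 0.0444). Without female KO mice 1 and 4, it was -0.12 (unadjusted p = 0.329). The genes closest to *Slc16a7* were *Cdh2* (r = 0.94), *Pptc7* (r = 0.93) and *Sspn* (r = 0.91).

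*Slc16a3*, the MCT4 gene known for lactate export from glycolytic muscle fibres, was 0.67, 1.37, 0.39 and 0.80 TPM in male WT and 2.30, 0.77, 1.75 and 0.76 TPM in male KO mice. The female values were 0.42, 0.72, 0.54 and 0.85 TPM in WT and 0.57, 0.27, 2.15 and 0.72 TPM in KO mice. The 3 highest values were those of male KO mice 1 and 3 and female KO mouse 3, and each pair of groups overlapped. The difference between KO and WT was 0.50 in males (SE 0.33, unadjusted p = 0.170, limma adjusted p = 0.42). In females, where the gene stayed under the minimum mean of 1 TPM, it was 0.19 (exact permutation p = 0.771).

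Those 3 libraries also had the highest summed TPM of 10 skeletal muscle markers, such as *Acta1* and *Ckm*, at 4657, 2558 and 4139 TPM. Over all libraries the sum ran from 2.25 to 4657 TPM. It spanned 19.5 to 2090 TPM in WT and 11.9 to 4657 TPM in KO males, and 2.25 to 1388 TPM in WT and 6.53 to 4139 TPM in KO females, so every group held libraries with a low and a high sum, and the sum was above 0 in all 16. 3 of the 10 markers were at 0 in at least 1 library. On the log2 scale, *Slc16a3* was higher in libraries with a higher muscle marker sum (Pearson's r = 0.68, permutation p = 0.00400; Spearman's rho = 0.61, permutation p = 0.0142). The relation was examined after the values were seen, so its p-values describe a pattern already known. The permutations ran over all libraries without regard to group. After adjustment over the 9 members, the Pearson relation passed the threshold (adjusted p = 0.036) and the Spearman relation did not (adjusted p = 0.127). Without the 2 libraries farthest from the median marker sum, female WT mice 1 and 4, r was 0.72 (permutation p = 0.00406). Within the 6 libraries whose name begins with 9, r was 0.44 (exact permutation p = 0.439). The other 8 members had Pearson's r between -0.26 and 0.21 with the same sum, with adjusted permutation p = 0.783.

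**Figure D4:**
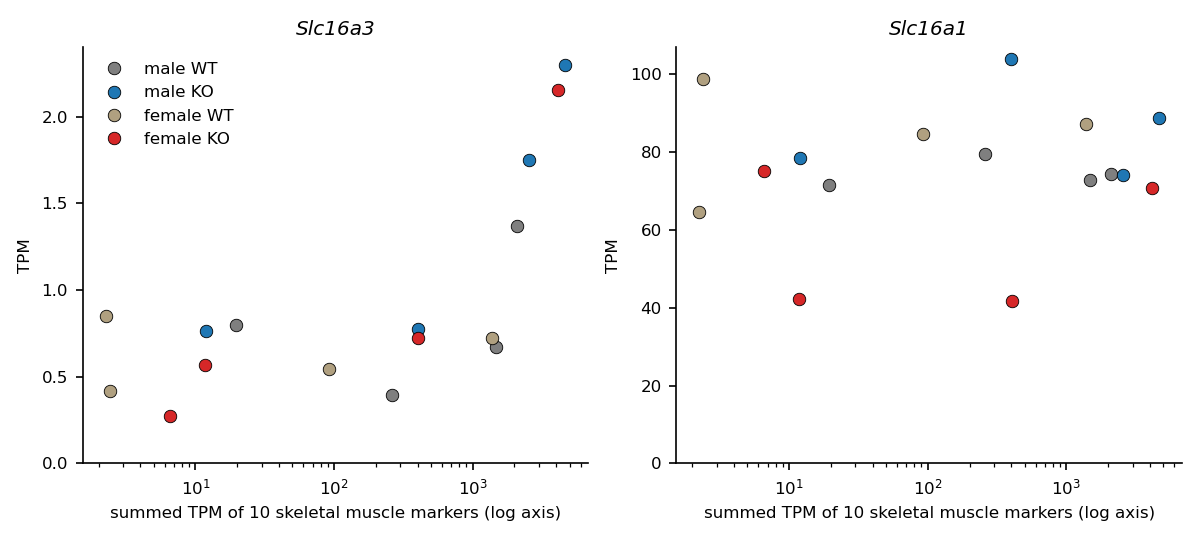
TPM of *Slc16a3* (left) and *Slc16a1* (right) against the summed TPM of 10 skeletal muscle markers on a log axis, one point per mouse, coloured by group. The 3 libraries with the most muscle marker TPM hold the 3 highest *Slc16a3* values, and *Slc16a1* shows no such order.

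The ratio of *Slc16a1* to *Slc16a3* was used as a second within-library measure. Its mean log2 value was 5.89 ± 0.48 in WT and 5.59 ± 0.68 in KO males, and 6.22 ± 0.48 in WT and 5.45 ± 0.81 in KO females. KO and WT differed by -0.30 in males (exact permutation p = 0.486) and -0.77 in females (exact permutation p = 0.143), with adjusted p = 0.729 and 0.571.

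*Oxct1*, which encodes SCOT, the enzyme that commits ketone bodies to oxidation, was 104.6, 97.8, 101.7 and 111.2 TPM in male WT and 94.9, 92.1, 87.2 and 88.7 TPM in male KO mice. Every male KO mouse was below every male WT mouse. The groups of 10.2% of the 12176 genes tested in males did not overlap, and *Oxct1* was the one member of 7 tested of which this held. Female WT mice had 116.2, 94.1, 113.3 and 106.3 TPM and female KO mice 72.3, 121.3, 116.6 and 85.1 TPM. Female KO mice 1 and 4 were below and mice 2 and 3 above the WT range.

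The mean of *Oxct1* in males was 104 ± 5.66 TPM in WT and 90.7 ± 3.48 TPM in KO (SD, n = 4). The log2 difference was -0.19 (SE 0.08, 95% interval -0.38 to -0.00, unadjusted p = 0.0486, limma adjusted p = 0.26). The main transcript Oxct1-201, which carried 82.6% of the gene's TPM, was 82.4 to 89.5 TPM in male WT and 71.6 to 79.4 TPM in male KO mice, also without overlap. In females the difference was -0.15 (SE 0.19, 95% interval -0.58 to 0.28, unadjusted p = 0.455), and without female KO mice 1 and 4 it was 0.15 (unadjusted p = 0.414). The closest genes were *Thrb*, *Kcns3* and *Adcy9* (r = 0.79, 0.78 and 0.77), a looser likeness than for the other members tested.

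*Acat1*, the mitochondrial acetoacetyl-CoA thiolase, was 374, 445, 433 and 452 TPM in male WT and 411, 472, 405 and 401 TPM in male KO mice. In females it was 414, 374, 402 and 308 TPM in WT and 374, 392, 368 and 371 TPM in KO mice. The KO values lay inside the WT range in females, and in males only KO mouse 2 exceeded it. The difference was -0.01 in males (95% interval -0.24 to 0.22, unadjusted p = 0.907) and 0.02 in females (95% interval -0.30 to 0.33, unadjusted p = 0.913). Its TPM was divided almost equally between the protein-coding Acat1-201 of 3405 nt (51.1%) and the 500 nt Acat1-203 (48.9%). The latter is annotated as a processed transcript, not as protein-coding. In female KO mice Acat1-201 averaged 166 ± 24.8 TPM against 203.5 ± 30.4 in WT, and Acat1-203 averaged 210 ± 15.1 against 171 ± 18.1 TPM (SD, n = 4, a description). The genes closest to *Acat1* were *Mrpl16* (r = 0.93), *Gm7666* (r = 0.93) and *Psmb7* (r = 0.92).

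*Bdh1*, the mitochondrial beta-hydroxybutyrate dehydrogenase, reached at most 0.69 TPM in any library and was listed at 0 in male WT mouse 4. *Bdh2*, the cytosolic enzyme of the same name, reached at most 0.54 TPM. In males the log2 difference between KO and WT was 0.31 for *Bdh1* (exact permutation p = 0.114) and 0.15 for *Bdh2* (exact permutation p = 0.286). In females it was -0.16 (exact permutation p = 0.629) and -0.05 (exact permutation p = 0.714). The pseudocount of 0.5 exceeds most of these values, so such differences understate any change. The log2 ratio of *Bdh1* to *Bdh2* differed between KO and WT by 0.16 in males and -0.11 in females (exact permutation p = 0.400 and 0.800).

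Across the members, 0 of the 7 tested in males and 0 of the 6 tested in females passed the adjusted threshold in limma. Of all genes, 0.00821% (1 gene) passed in males and 0% in females. At an unadjusted p under 0.05 there were 2 of 7 members in males (*Ldha* higher, *Oxct1* lower) against 18.7% of all genes, and 1 of 6 in females (*Slc16a1* lower) against 17.1%. In females the groups of 0 of 6 members were free of overlap, against 8.08% of all genes. The median log2 difference of the members was -0.01 in males and -0.23 in females, beside 0.16 and 0.10 over all genes tested. Scaling by median-of-ratios factors instead brought the median of all genes to 0.01 in males and 0.02 in females. On that scale *Oxct1* was -0.36 (unadjusted p = 0.00795), *Slc16a7* -0.43 (unadjusted p = 0.00841), *Ldhb* -0.46 (unadjusted p = 0.0467), *Acat1* -0.18 (unadjusted p = 0.0236) and *Ldha* 0.19 (unadjusted p = 0.0891) in males. Before this scaling, 18.7% of all genes had an unadjusted p under 0.05 in males. The share after it is not given here, so the male values are no result about the members as a set. In females it gave *Slc16a1* -0.67 (unadjusted p = 0.0240) and *Ldha* -0.40 (unadjusted p = 0.0468). These were the 2 members under 0.05 there, beside 2440 of 12145 genes at that level in females. No member passed the adjusted threshold in limma on that scale. Under all alternatives run, the adjusted p of the members named here was at least 0.170 in males and 0.120 in females.

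The KO effect in females minus that in males had an unadjusted p under 0.05 for 3 of 6 members, *Ldha*, *Slc16a1* and *Ldhb*, against 14.2% of all genes, and an adjusted p under 0.05 for 0 of 6, against 0% of all genes. *Ldha* and *Slc16a1* had positive point estimates in males and negative ones in females, and *Ldhb* had the opposite signs. *Slc16a7*, *Oxct1* and *Acat1* had interaction values of -0.35, 0.04 and 0.03 (unadjusted p = 0.402, 0.831 and 0.859), with 95% intervals of -1.21 to 0.51, -0.39 to 0.48 and -0.30 to 0.36.

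**Figure D5:**
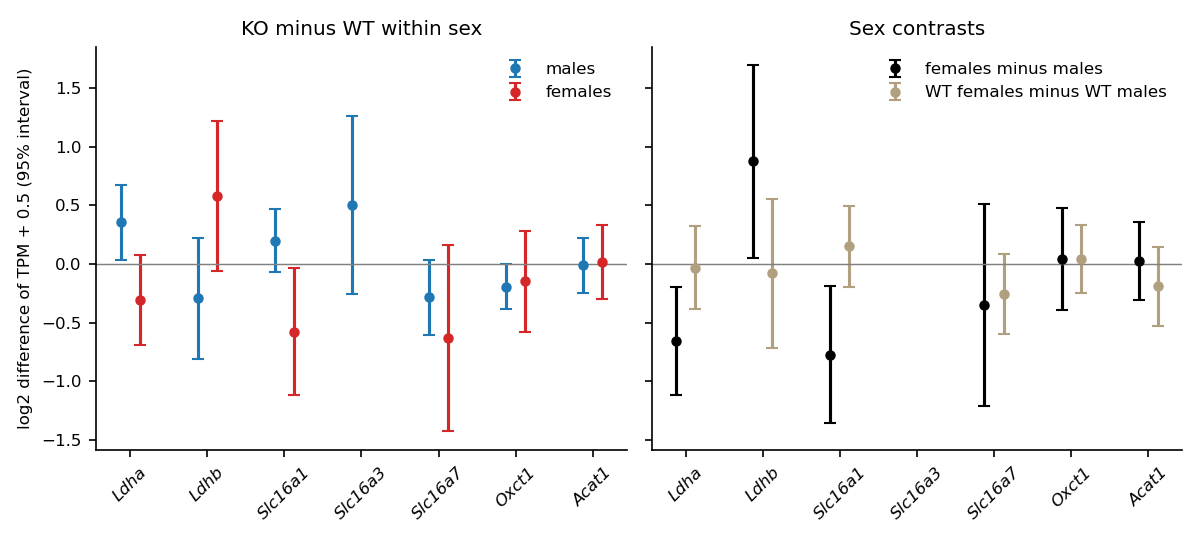
Log2 differences of TPM + 0.5 with 95% intervals from limma for the members that reached a mean of 1 TPM in a fit. The left panel shows KO minus WT in males and in females, and the right panel the difference between these effects (females minus males) and WT females minus WT males. The intervals of *Ldha*, *Ldhb* and *Slc16a1* for females minus males leave out 0 before adjustment. *Slc16a3* reached the minimum only in the male comparison.

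For the mean KO effect over both sexes, 0 of 6 members passed the adjusted threshold, against 2.93% of all genes (358 of 12210), and 1 of 6, *Slc16a7*, had an unadjusted p under 0.05, against 24% of all genes. The mean effects of *Ldha* (0.03), *Ldhb* (0.14) and *Acat1* (0.00) were small beside their standard errors of 0.11, 0.19 and 0.08.

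In WT mice, no difference between the sexes passed a threshold in these genes. Of 6 members, 0 passed the adjusted threshold (0.0664% of all genes, 8 of 12042, did), 0 had an unadjusted p under 0.05 (3.42% of all genes), and 0 were free of overlap (1.92% of all genes). The estimates for WT females minus WT males ran from -0.26 for *Slc16a7* (95% interval -0.60 to 0.09) to 0.15 for *Slc16a1* (95% interval -0.20 to 0.50). For *Ldhb* the interval was -0.71 to 0.55. With median-of-ratios scaling the *Ldha* value was 0.01 in place of -0.03.

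Female KO mice 1 and 4 differed from the other 2 female KO mice in several members. *Ldha*, *Slc16a1*, *Slc16a7* and *Oxct1* were lower in female KO mice 1 and 4 than in all 14 other libraries. These libraries were singled out after their values were seen, and among all 12210 genes with a mean of at least 1 TPM, 8.70% were lower and 11.8% higher in both than in every other library. Of related genes, the MCT1 partner *Bsg* (630 and 549 TPM, against at most 375 elsewhere) was higher, and *Mpc1* and *Pdha1* lower. Of 4 white adipocyte markers, 1, *Lep*, was lower in both (2.24 and 1.59 TPM, against at least 6.41 elsewhere), and of 7 brown adipocyte markers, 1, *Elovl3*, was higher (50.2 and 69.5 TPM, against at most 29.1). The other 6 brown markers, *Ucp1* included, and the summed brown and white markers were not outside the range of the rest in both libraries. Of 5 endothelial markers, 4 were higher in both than in all other libraries. Of 6 Schwann cell and neuron markers, 1, *S100b*, was lower and 1, *Sox10*, was higher in both. Their sum was 76.6 and 44.1 TPM in female KO mice 1 and 4, against 102 to 202 TPM in the other 14 libraries. The part of these cells in the members' values was not tested. Without both libraries, the female differences were -0.07 for *Ldha* (unadjusted p = 0.696), 0.19 for *Ldhb* (unadjusted p = 0.527) and 0.04 for *Slc16a7* (unadjusted p = 0.836). The difference between the sexes in the KO effect then had an unadjusted p under 0.05 for *Oxct1* alone (0.34, unadjusted p = 0.0400, limma adjusted p = 0.79). It was -0.43 for *Ldha* (unadjusted p = 0.0632) and 0.48 for *Ldhb* (unadjusted p = 0.227). Summed endothelial markers separated the female groups (174 to 263 TPM in WT and 278 to 561 TPM in KO, with all 5 markers above 0), and their part in these values was not tested. Without female WT mouse 4, the female differences of *Slc16a1*, *Ldhb* and *Ldha* were -0.70, 0.64 and -0.33 (unadjusted p = 0.0221, 0.0807 and 0.0990).

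The name prefix of the libraries, whose meaning the labels do not give, was spread unevenly over the groups. With the prefix as a covariate the *Ldha* difference in males was 0.27 (unadjusted p = 0.119), the *Oxct1* difference in males -0.25 (unadjusted p = 0.0528) and the *Slc16a1* difference in females -0.57 (unadjusted p = 0.0975). The difference between effects was -0.68 for *Ldha* (unadjusted p = 0.0367), -0.88 for *Slc16a1* (unadjusted p = 0.0302) and 0.63 for *Ldhb* (unadjusted p = 0.166).

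Among other genes of lactate and pyruvate use, 8 of 13 listed genes were measurable, and 0 passed the adjusted threshold in limma in any comparison. In males 0 had an unadjusted p under 0.05. In females 2 of the 8 were lower at that level, against 17.1% of all genes at that level in either direction, *Pdha1*, a subunit of pyruvate dehydrogenase (-0.65, unadjusted p = 0.0366), and *Mpc1*, a subunit of the mitochondrial pyruvate carrier (-0.41, unadjusted p = 0.0442). Without female KO mice 1 and 4 these differences were -0.19 (unadjusted p = 0.404) and -0.24 (unadjusted p = 0.306). The difference between the sexes had an unadjusted p under 0.05 for 3 of the 8, against 14.2% of all genes. They were *Pdha1* (-1.08, unadjusted p = 0.00795), *Mpc1* (-0.73, unadjusted p = 0.00932) and pyruvate carboxylase *Pcx* (-0.65, unadjusted p = 0.0115), and without female KO mice 1 and 4 they were -0.62, -0.56 and -0.42 (unadjusted p = 0.068, 0.0607 and 0.0887). Between WT females and WT males the lactate receptor gene *Hcar1* differed by 0.89 (unadjusted p = 0.0441), the 1 gene of the 8 at that level, against 3.42% of all genes. Its groups overlapped, and without male WT mouse 3 the difference was 0.55 (unadjusted p = 0.107).

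Of the other SLC16 family members, 3 of 11 were measurable in males and in females, and 0 had an unadjusted p under 0.05 in any comparison. Their smallest p in females was that of *Slc16a13* (0.40, unadjusted p = 0.0954). Of the 11 listed genes of ketone synthesis and related steps, 6 were tested in males and 7 in females, with 0 past either threshold. For the difference between the sexes, 1 of 7 was higher and 1 of 7 lower at an unadjusted p under 0.05, against 14.2% of all genes. The lower one was the cytosolic synthase gene *Hmgcs1* (-0.72, unadjusted p = 0.0233, limma adjusted p = 0.28), and the higher one is not reported here. Without female KO mice 1 and 4 the *Hmgcs1* value was -0.40 (unadjusted p = 0.155). Among 5 known regulators, *Ppara*, the nuclear receptor that controls fatty acid and ketone genes, was lower in the mean KO effect over both sexes (-0.67, SE 0.15, limma adjusted p = 0.0313), and the other 4 did not pass. Of all genes, 2.93% passed in this mean effect. *Ppara* was 38.8 to 64.4 TPM in WT and 29.3 to 46.3 TPM in KO males. In females it was 37.4 to 67.5 TPM in WT and 23.8 to 34.8 TPM in KO. The female groups did not overlap, which also held for 8.08% of all genes tested in females. The *Ppara* call was lost in 8 of the 16 fits that left out 1 library (adjusted p = 0.0525 to 0.0735; female KO mice 1 and 4, female WT mouse 3, male KO mice 1 to 3 and male WT mice 1 and 3). It was also lost without female KO mice 1 and 4 together (-0.62, adjusted p = 0.197), when replicate number was fitted as a block (adjusted p = 0.0622), with the prefix as a covariate (adjusted p = 0.0598) and without the TPM minimum (adjusted p = 0.084). The estimate stayed between -0.80 and -0.60 under all alternatives run. At an unadjusted p under 0.05, 1 of the 5 regulators was lower in males, *Ppargc1a* (-0.31, unadjusted p = 0.0383), against 18.7% of all genes. In females 2 of 5 were lower, *Ppara* (-0.95, unadjusted p = 0.00137) and *Hif1a* (-0.44, unadjusted p = 0.0213), against 17.1%. The difference between the sexes reached that level for 1 of 5, *Hif1a* (-0.82, unadjusted p = 0.00962, limma adjusted p = 0.22), against 14.2%. Without female KO mice 1 and 4 the *Hif1a* difference between KO and WT in females was -0.31 (unadjusted p = 0.159).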

How the data were processed

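BAT was collected from 16 mice, and stranded mRNA libraries were sequenced with single-end reads. The authors quantified transcripts with kallisto 0.46.2 and deposited them in TPM, in which each library sums to 1000000. The submitters' processing notes name GRCm39, and the release of the annotation is not given in the sources used here. TPM keep no read depth, so no counting interval is given.

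Identifiers were matched without version to GENCODE mouse release 21 (135051 of 137438 transcripts), and TPM were summed per symbol. No pair of libraries was identical, and all columns were assigned from the labels. Values were transformed to log2(TPM + 0.5). Genes with a mean of at least 1 TPM in the libraries of a fit were compared with limma 3.58.1 (R 4.3.3, eBayes with a trend), two-sided, with Benjamini-Hochberg adjustment over all genes and a threshold of 0.05. WT and KO libraries of one sex entered each within-sex fit, and the difference of the KO effect between sexes and its mean were taken from a fit of all 16. Members under the minimum and the 12 ratio tests used exact two-sided permutation tests (scipy 1.17.1), and relations with muscle markers used 100000 permutations, enumerated fully for 6 libraries. The fits were tested on simulated data with independent noise for each gene. Such data hold no shifts shared by many genes of a library, so the fits were not tested under those.

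All 9 members are named. For those with a mean of at least 1 TPM, the 3 genes with the highest Pearson's r over the 16 libraries are also named, and from each further list the genes with the smallest p. *Lep*, *Elovl3* and the genes described in female KO mice 1 and 4 were picked once their values were known. The members and lists were chosen with earlier results of these data known. Alternatives were pseudocounts of 1 and 0.1, no minimum, a minimum of 5 TPM, 2 rescalings, no trend, all libraries in one fit, the replicate number as a block, the library name prefix as a covariate, and leaving out each library. Weighting transcripts by length, leaving out female KO mice 1 and 4, and the muscle marker relations were added after seeing the data. Protein sequences were not used here, and 1 of the 4 ratios and 1 listed gene are not reported here, although they entered the adjustment and the counts.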

Additional observations from a re-analysis of the deposited data

Results flagged for a closer look

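3 of 52 sets of 4 values held a value far from the other 3, by Dixon's criterion, which chance meets in about 1 of 20 sets. *Ldhb* in male WT mouse 2 was 273 TPM, against 124 to 145 TPM in the other male WT mice. Most of it, 237 TPM, was assigned to the short model Ldhb-202. Genes with short transcripts were high in this library (Spearman's rho of -0.29 between the deviation of a gene and its length, the lowest of the 16 libraries). Male KO mouse 1 had the next lowest rho (-0.18), with 67.1% of its *Ldhb* TPM in Ldhb-202. Female KO mice 1 and 4 had a rho of -0.17 and -0.10, with 92.0 and 90.6% in that model. Whether transcript length bears on the *Ldhb* values was not tested. *Acat1* in male KO mouse 2 was 472 TPM, against 401 to 411 TPM in the other male KO mice. The log2 ratio of *Bdh1* to *Bdh2* in male KO mouse 3 was 0.41, against -0.06 to 0.01 in the other male KO mice, with both genes under 1 TPM.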

How the results depend on the processing

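The number of members past the adjusted threshold was 0 in every comparison and stayed 0 under each alternative run, except for the mean effect over both sexes, where it ran from 0 to 1 when libraries were left out in turn. The 1 was *Slc16a7* without female KO mouse 2. Over all genes, the count past the threshold was 1 in males (0 to 38 under the alternatives), 0 in females (0 to 9), 0 for the difference between sexes (0 to 3), 358 for the mean effect (9 to 1055) and 8 for WT females against WT males (3 to 11). Replicate numbers did not pair the mice: the deviations of same-numbered mice correlated between -0.12 and 0.35. With the replicate number as a block, 0 members passed in any comparison, and the count for the mean effect went from 358 to 60 genes.

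Signs that turned belonged to differences near 0 or to female KO mice 1 and 4, and none had passed the threshold. Where the cause is not in the alternative itself, it was not tested. Without female KO mice 1 and 4, the ratio of *Bdh1* to *Bdh2* (0.073), *Oxct1* (0.15) and *Slc16a7* (0.043) turned in females, *Slc16a7* (0.33) in the difference between sexes, and *Ldhb* (-0.053) and *Slc16a1* (0.0084) in the mean effect. Median-of-ratios scaling turned *Acat1* in females (-0.077), *Acat1* (-0.13) and *Ldha* (-0.11) in the mean effect, and *Ldha* (0.0051) in WT females against WT males. Leaving out mitochondrial transcripts turned *Acat1* in females (-0.14), *Acat1* (-0.020) and *Oxct1* (-0.0039) in the difference between sexes, and *Acat1* (-0.13) and *Ldha* (-0.11) in the mean effect. The prefix covariate turned *Acat1* in females (-0.037), *Acat1* (-0.0097) and *Oxct1* (-0.032) in the difference between sexes, and *Acat1* (-0.040) in the mean effect. Weighting by length turned *Acat1* in males (0.044), females (-0.20), the difference between sexes (-0.25) and the mean effect (-0.078), and *Ldhb* (0.057) in WT females against WT males.

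Leaving out each library in turn gave ranges that crossed 0 for *Acat1* in males (-0.073 to 0.017), in females (-0.075 to 0.067), in the difference between sexes (-0.063 to 0.089) and in the mean effect (-0.044 to 0.027), for *Oxct1* in the difference between sexes (-0.065 to 0.18), for *Ldha* in the mean effect (-0.030 to 0.078) and in WT females against WT males (-0.14 to 0.026), and for *Ldhb* in the latter (-0.21 to 0.17). Of the ratios, the range crossed 0 for *Bdh1* to *Bdh2* in females (-0.46 to 0.099) and between WT sexes (-0.025 to 0.53), and between WT sexes for *Ldhb* to *Ldha* (-0.23 to 0.20). The prefix covariate could not be estimated for WT females against WT males, and *Slc16a7* has no value at a minimum of 5 TPM. The unknown depth limits *Slc16a3*, *Bdh1* and *Bdh2* most.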
